A study of Mus musculus with 12 samples.

Results

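The structural noncoding RNAs described here are 8 rows of a gene table from mouse macrophages: Rn7s1 and Rn7s2 (7SL RNA), Rn7sk (7SK RNA), Rmrp (the RNA of RNase MRP), Rpph1 (the RNA of RNase P), n-R5-8s1 (a 5.8S ribosomal RNA copy), CT010467.1 and CT010467.2. They were taken by name, and 8 of the 8 listed names were found among the 13232 genes of the table. The table compared bone marrow-derived macrophages, cells grown from marrow with the growth factor M-CSF, from WT C57B6/J mice whose diet was normal (ND) or high in fat (HFD). Cultures of both diets had 20 ng/ml of M-CSF, were in serum-free medium from day 4 and spent 1 hour at 1% oxygen on day 7. Each diet had 3 hypoxia libraries, and the 6 normoxia libraries named in the labels were not analysed here, so no value below describes the response to hypoxia. The age and sex of the mice and the length of feeding are not given in the sources used here, nor is it stated whether the 3 libraries of a diet came from separate animals, so the p-values measure only the spread between these libraries.

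The structural RNAs with known roles work as parts of ribonucleoprotein machines and are not translated. 7SL RNA is the scaffold of the signal recognition particle, which brings ribosomes making secreted and membrane proteins to the endoplasmic reticulum. 7SK RNA holds the elongation kinase P-TEFb in an inactive complex. RNase P trims the 5′ ends of precursor tRNAs, and RNase MRP cuts the precursor of ribosomal RNA. RNA polymerase III makes these 4 kinds of RNA, whereas 5.8S and 18S ribosomal RNA are cut from a precursor made by RNA polymerase I. Library input was 100 ng of total RNA, and the kit depletes ribosomal RNA and does not select for poly(A) tails, so RNAs without a tail were captured, and the ribosomal RNA rows count what remained after depletion.

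The 8 rows took up 6.86% to 9.68% of a library's column total, a sum that may count 7SL reads more than once. No diet difference among them, nor among the 13232 genes of the table (0%), passed an adjusted p of 0.05 in limma with equal weights on all 6 libraries and no replicate block. With limma's array weights 2 of the 8 passed, n-R5-8s1 and CT010467.1, where 8.56% of all genes did. Rn7s1, Rn7s2, Rn7sk, Rmrp and Rpph1 differed between the diets by less than the range over the libraries of 1 diet. The row n-R5-8s1 was lower in each HFD library than in each ND library, as were 7.07% of all genes. CT010467.1 was the row with the widest spread among the 8, 3.61-fold from its lowest to its highest library. The values are a signal, gene counts that had been estimated and divided by a size factor per library, and a share is a row's percent of its column total.

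The estimated reads in the 13232 rows summed to between 19046140 and 24491086 per library, which is not the full sequencing depth. The 10 macrophage markers looked for were all in the table, with summed values of 369741 to 423099 in ND and 366852 to 427534 in HFD. Of 10 neutrophil markers 7 were in the table, all 7 with a higher HFD than ND mean, and their sum ranged from 1776 to 2592 in ND and from 2367 to 3750 in HFD. None of 6 erythroid markers was in the table, and 1 of 5 B cell, 1 of 6 T cell and 3 of 5 stroma markers were, the last with summed values of 177 to 549 in ND and 51.8 to 337 in HFD. The means of the B cell gene, the T cell gene, the 3 stroma genes and all 4 proliferation genes looked for were lower in HFD, with median log2 differences of -0.40, -0.70, -1.33 and -0.09 in that order, and all these sums overlapped between the diets. The part of these other cell types in the values below was not tested. ND replicate 3 stood apart from its diet: on the first principal component of 10794 genes, with 43.3% of the variance, it scored 3.43 against -14 and -13.5 for the other ND libraries. HFD replicate 1 scored 1.33, also apart from the 11.3 and 11.4 of the other HFD libraries. The differences of the 8 rows and of the mitochondrial ribosomal RNAs are given with and without ND replicate 3. In bulk RNA, a change in which cells are present and a change in RNA per cell cannot be told apart.

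The 7SL rows come first because their likeness decides how their counts can be read. In GENCODE M21 the 300 bases of Rn7s1 and Rn7s2 differ at 0 positions. Each of the 226 windows of 75 bases in Rn7s1, the length of 1 read, also occurs in another annotated gene, and 99 of them occur in Rn7s6. The values of Rn7s1 and Rn7s2 differed by at most 2 units, or 0.000372%, in any library. Whether each read was divided between the rows or counted in both is not given in the sources used here, so the rows are 1 measurement and their sum may count a read more than once.

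Rn7s1 had values of 438846, 561241 and 629287 in ND replicates 1, 2 and 3 and of 537922, 563922 and 420677 in HFD replicates 1, 2 and 3. The lowest and the second lowest libraries came from different diets, HFD replicate 3 and ND replicate 1, and the diets overlapped. As a share of the column total, Rn7s1 took 1.98%, 2.52% and 2.80% in ND and 2.39%, 2.48% and 1.89% in HFD. Rn7s1 and Rn7s2 together held 4.87% ± 0.828 (SD, n = 3) of ND and 4.51% ± 0.634 (SD, n = 3) of HFD libraries. The diet difference of Rn7s1 on log2(value + 1), HFD against ND, was -0.09 with an SE of 0.18 and a 95% interval of -0.502 to 0.315 (limma, Benjamini-Hochberg adjusted p = 0.897). Leaving out ND replicate 3 turned its sign, to 0.02, and so did leaving out HFD replicate 3, to 0.04.

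The other 7SL copy had a different profile. Rn7s6, which was named after its values were seen, had values of 365, 4101 and 101 in ND and 59.5, 71.3 and 227 in HFD. ND replicate 2 alone was high, and the lowest and highest libraries differed 68.9-fold, against 1.50-fold for Rn7s1. The log2 difference of Rn7s6 was -2.42 (SE 1.08, limma adjusted p = 0.472) and ran from -3.62 (ND replicate 3 left out, adjusted p = 0.0819) to -0.95 (ND replicate 2 left out, adjusted p = 0.751). With array weights it was -2.88 and passed, at an adjusted p of 0.0489.

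Rn7sk lies at chr9:78175303-78175633 on the minus strand. Its first 100 of 331 bases are shown with the GATC tetramers in capitals, since the GAUC motif near the 5′ end of 7SK is known for contacting the P-TEFb inhibitor HEXIM1. GATC reads the same on both strands and starts at bases 13, 42 and 64.
Rn7sk first bases: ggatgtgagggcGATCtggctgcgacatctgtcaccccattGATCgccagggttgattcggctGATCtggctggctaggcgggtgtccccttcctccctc
Of 129282 annotated transcripts at least as long, 7.99% held as many GATC tetramers in their first 331 bases and 61.9% held any. Other annotated genes, 4 in number, share 167 of the 257 windows of 75 bases (65.0%).

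Rn7sk was the steadiest of the 8 rows. Its values were 266509, 317028 and 297124 in ND and 283835, 276646 and 250680 in HFD. ND replicate 1 lay within the HFD range, and HFD replicate 3 was again the lowest library. The share was 1.32% ± 0.109 (SD, n = 3) in ND and 1.20% ± 0.0677 (SD, n = 3) in HFD, and the highest library was 1.26 times the lowest, close to the 1.27 of the median gene. The log2 difference was -0.12 (SE 0.12, interval -0.39 to 0.16, limma adjusted p = 0.787), and -0.11 without ND replicate 3.

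The proteins of the 7SK particle and of P-TEFb were in the table for 6 of 7 listed genes, and 0 passed the adjusted p in either direction. The 6 had log2 differences from -0.132 to -0.001, with a median of -0.03, beside -0.0034 over all genes. That median ran from -0.0655 without ND replicate 3 to -0.005 without HFD replicate 3. Larp7, which binds the 3′ end of 7SK RNA, had a mean of 383 in ND and 349 in HFD, with each HFD library below each ND library, but its adjusted p was 0.648 (limma). Ccnt2, a cyclin of P-TEFb, had means of 1613 and 1540 and overlapped between the diets. Larp7 was the 1 of 6 that did not overlap, where HFD was all lower in 7.07% of all genes.

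The signal recognition particle list, the proteins that bind 7SL and the receptor subunits, had 10 of 11 genes in the table. None passed the adjusted p. The HFD mean was on the higher side for 9 and on the lower side for 1, with a median log2 difference of 0.04. That median ran from 0.0113 without ND replicate 1 to 0.0595 without HFD replicate 1. Srp19, which helps the particle assemble on 7SL, averaged 287 ± 13.4 in ND against 311 ± 29.1 in HFD (SD, n = 3), and Srp54c, a copy of the signal sequence-binding subunit, 1090 ± 114 and 1158 ± 61.5 (SD, n = 3). Both overlapped between the diets, and the smallest adjusted p of the list was 0.728 (limma).

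Rpph1, of 319 bases, lies at chr14:50807449-50807767 on the minus strand, and its first 280 bases are shown. Bases 36 to 268, in capitals, also form part of an annotated transcript of Ccnb1ip1 on the same strand, so a read from them does not tell the genes apart even with strand known.
Rpph1 first bases: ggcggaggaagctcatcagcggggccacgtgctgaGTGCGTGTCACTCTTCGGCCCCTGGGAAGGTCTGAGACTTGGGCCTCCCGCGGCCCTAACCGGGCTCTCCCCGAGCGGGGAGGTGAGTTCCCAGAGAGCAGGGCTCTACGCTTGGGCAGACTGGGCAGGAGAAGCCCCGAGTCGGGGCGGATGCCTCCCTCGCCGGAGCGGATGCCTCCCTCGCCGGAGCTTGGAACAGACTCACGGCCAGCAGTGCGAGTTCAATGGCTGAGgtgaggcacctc
Of the 245 windows of 75 bases in Rpph1, 159 (64.9%) fall in that shared stretch. Ccnb1ip1 had no row under that name in the table.

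The values of Rpph1 were 145058, 179121 and 187403 in ND and 177558, 155896 and 120845 in HFD. HFD replicate 3 was the lowest and ND replicate 1 the next, and the diets overlapped. Rpph1 held 0.764% ± 0.0952 (SD, n = 3) of ND and 0.672% ± 0.123 (SD, n = 3) of HFD libraries. The log2 difference was -0.18 (SE 0.16, interval -0.54 to 0.17, limma adjusted p = 0.733). Leaving out HFD replicate 3 brought it to -0.03, HFD replicate 1 to -0.30 and ND replicate 3 to -0.11.

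Rmrp, at chr4:43492788-43493058 on the minus strand, is 271 bases long, and 50 of its 197 windows of 75 bases lie on the strand opposite to Ccdc107. The library kit keeps strand, but the strand setting of the counting is not given in the sources used here. Ccdc107 had values of 123 to 178, against 17646 to 23439 for Rmrp.

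Rmrp had values of 18318, 19241 and 23439 in ND and 20190, 21201 and 17646 in HFD. All HFD libraries but replicate 3 lay within the ND range. Its share was 0.0911% ± 0.0115 (SD, n = 3) in ND and 0.0874% ± 0.00722 (SD, n = 3) in HFD. The log2 difference was -0.04 (SE 0.11, interval -0.28 to 0.19, limma adjusted p = 0.916), and it turned positive when ND replicate 3 (0.06) or HFD replicate 3 (0.03) was left out. Within a library, Rpph1 exceeded Rmrp by 7.92, 9.31 and 7.995 times in ND and by 8.79, 7.35 and 6.85 times in HFD, and these ratios of values, not set per length, overlapped too (exact two-sided permutation p = 0.4).

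RNase P and RNase MRP share most of their proteins. Of 11 listed, 10 were in the table, all 10 with a log2 difference above 0, from 0.006 to 0.386, and a median of 0.12, and none passed the adjusted p. Over all genes 51.1% were below 0, with a median of -0.0034. The median of the list lay between 0.11 and 0.14 when single libraries were left out. Rpp14 averaged 169 ± 4.82 in ND against 197 ± 7.24 in HFD (SD, n = 3), and Rpp40 had 54.7 ± 9.92 and 71.6 ± 11.2 (SD, n = 3). In both genes each HFD library exceeded each ND library, and the limma adjusted p was 0.485 for Rpp14 and 0.552 for Rpp40. Both were named for having the smallest p of the list, and they were the 2 of 10 that did not overlap. Over all genes 14.5% did not overlap, 7.44% with HFD all higher.

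The RNAs Rn7s1, Rn7sk, Rmrp and Rpph1 were low in the same libraries, 1 of each diet. HFD replicate 3 was the lowest of the 6 libraries for 4 of 4 (Rn7s1, Rn7sk, Rmrp and Rpph1), and ND replicate 1 was the second lowest for 4 of 4. HFD replicate 3 was the lowest library in 20.9% of all genes, and this order of both libraries held in 3.58%, among them Rnu12 and Scarna2, whose values are given below. Rny1, Rny3 and Vaultrc5, also given below, did not have this order. ND replicate 3 was the highest for 3 of 4, and ND replicate 2 for Rn7sk. Relative to each RNA's mean over libraries, the 4 averaged -0.14, 0.10 and 0.21 on the log2 scale in ND and 0.06, 0.04 and -0.26 in HFD. In mean absolute difference over the libraries, the 6 pairs among the 4 lay 0.085 (Rn7s1 and Rmrp) to 0.124 (Rn7s1 and Rn7sk) apart. The median gene lay 0.197 from Rn7s1, 0.123 from Rn7sk, 0.143 from Rmrp and 0.204 from Rpph1. Single mRNAs, named below, lay nearer to each of the 4 than these RNAs lay to one another. The RNAs share their libraries, their size factors and their lack of a poly(A) tail, and these distances are descriptive.

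**Figure D1:**
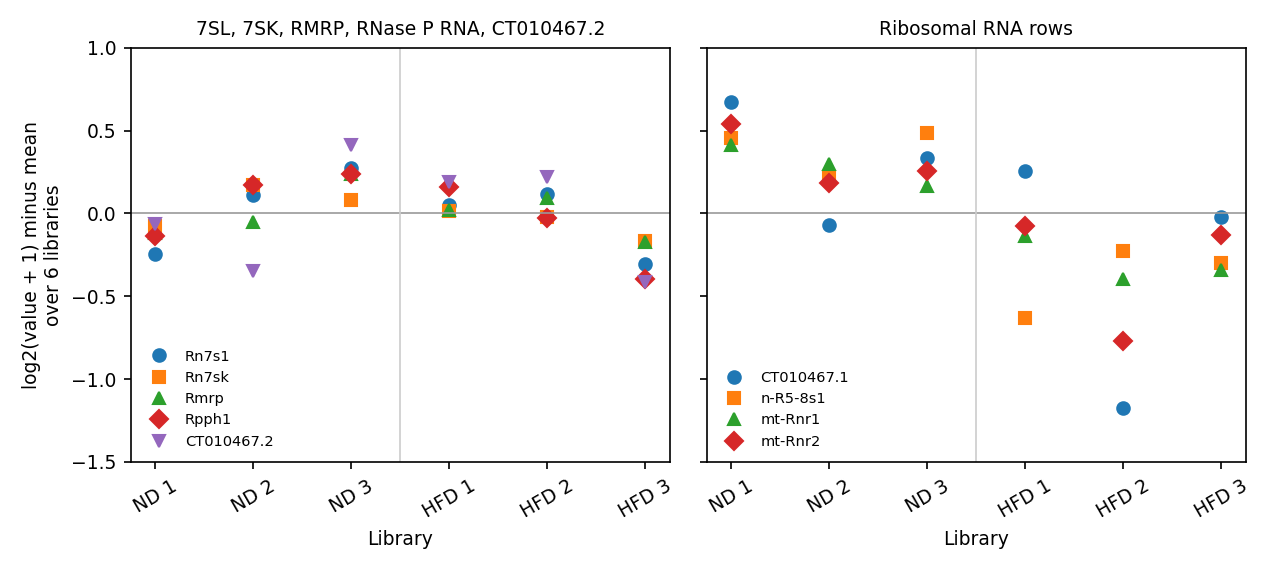
log2(value + 1) of each RNA minus its mean over the 6 libraries (vertical axis) in each library (horizontal axis), with 1 point per RNA. The left panel holds Rn7s1, Rn7sk, Rmrp, Rpph1 and CT010467.2, the right panel the ribosomal RNA rows. On the left the points of ND replicate 1 and HFD replicate 3 sit below 0, and on the right CT010467.1 reaches -1.18 in HFD replicate 2.

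The listed polymerase III genes went in both directions, beside a median log2 difference of -0.0034 over all genes. All 13 listed subunits were in the table, 7 above and 6 below 0, with a median log2 difference of 0.03, and 0 passed. That median was -0.01 without ND replicate 2. Polr3e had means of 407 ± 39.5 and 480 ± 27.5 and Polr3g 200.2 ± 5.75 and 236 ± 17.3 in ND and HFD (SD, n = 3), and in both each HFD library was above each ND library. Their limma adjusted p-values were 0.417 and 0.448. Both were named for having the smallest p of the list, and they were the 2 of 13 that did not overlap. Over all genes 14.5% did not overlap, 7.44% with HFD all higher. All 20 listed initiation and regulatory factors were in the table, 8 above and 12 below 0, with a median of -0.02 and 0 passing. Their median ran from -0.0354 without ND replicate 3 to 0.0001 without HFD replicate 1. Brf1, the TFIIB-related factor, had means of 626 and 578, with each HFD library below each ND library (adjusted p = 0.616, limma), and Snapc3, a subunit of the complex that starts 7SK and RNase P RNA transcription, had 577 and 511 with overlap. Brf1 was the 1 of 20 that did not overlap, where HFD was all lower in 7.07% of all genes.

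CT010467.1 and CT010467.2 are annotation names that say nothing of function. GENCODE M21 types CT010467.1 as rRNA, at chr17:39846353-39848827 on the minus strand. Its first 1244 bases are the exact reverse complement of the first 1244 of Gm42418, a gene on the plus strand of the same place, so its annotated strand is the opposite of Gm42418. The first 60 bases of CT010467.1 and the stretch of Gm42418 they pair with are shown, both 5′ to 3′.
CT010467.1 first bases: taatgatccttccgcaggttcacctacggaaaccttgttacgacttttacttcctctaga
Gm42418 matching stretch: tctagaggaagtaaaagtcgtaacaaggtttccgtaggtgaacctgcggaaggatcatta
The Gm42418 strand carries the sequence of the 3′ end of 18S ribosomal RNA, and RefSeq lists an 18S-related gene, Rn18s-rs5, at this place. On its own strand CT010467.1 shares 849 of its 1775 windows of 75 bases with AY036118. Neither AY036118 nor Gm42418 had a row under that name in the table. With the counting's strand setting unknown, it cannot be said from which strand the reads of CT010467.1 came.

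CT010467.1 had values of 372281, 222398 and 294109 in ND and 278851, 103220 and 229918 in HFD. HFD replicate 2 was far below the other 5 libraries, ND replicate 1 was the highest, and the diets overlapped. The shares were 1.68%, 0.997% and 1.31% in ND and 1.24%, 0.454% and 1.03% in HFD. The log2 difference was -0.63 (SE 0.33, interval -1.37 to 0.115, limma adjusted p = 0.552). It rested in large part on HFD replicate 2, since it was -0.20 without that library, and -0.91 without HFD replicate 1, -0.45 without ND replicate 1 and -0.62 with ND replicate 3 left out. The within-diet SD of CT010467.1 on the log2 scale was 0.60, against 0.12 for the median gene, and 1.21% of all genes had a larger one. With limma's array weights, which down-weight libraries that fit their group poorly and gave ND replicate 3 a weight of 0.441 and HFD replicate 2 one of 3.09, the difference was -1.20 with an adjusted p of 0.0485, in a fit that called 1133 genes or 8.56% of the table. Its lowest and highest adjusted p among the alternatives were 0.0485 and 0.970.

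GENCODE M21 types CT010467.2, at chr17:39811786-39812022 on the minus strand, as an unprocessed pseudogene of 237 bases, which goes against counting it as a structural RNA. Its sequence is shown because it differs in base composition from the other rows, with 32.1% G and C against 52.0% to 67.1% in the other 7.
CT010467.2: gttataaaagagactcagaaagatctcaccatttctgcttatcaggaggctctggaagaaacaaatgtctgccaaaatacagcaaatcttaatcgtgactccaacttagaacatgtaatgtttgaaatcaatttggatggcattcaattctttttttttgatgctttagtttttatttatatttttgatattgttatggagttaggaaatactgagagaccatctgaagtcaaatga
None of its 163 windows of 75 bases occurs in another annotated transcript. The annotation release used by the authors is not given in the sources used here, and the row was matched to this gene by name only, so the RNA behind its counts is uncertain.

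CT010467.2 had values of 83035, 68274 and 115599 in ND and 99102, 101183 and 65028 in HFD. It was lowest in HFD replicate 3 and highest in ND replicate 3, like Rn7s1, Rmrp and Rpph1, but second lowest in ND replicate 2. Its share was 0.398% ± 0.106 (SD, n = 3) in ND and 0.392% ± 0.0867 (SD, n = 3) in HFD. The log2 difference was -0.002 (SE 0.21, interval -0.48 to 0.47, limma adjusted p = 0.999), and was 0.20 without ND replicate 3 and 0.21 without HFD replicate 3.

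The 5.8S copy n-R5-8s1, typed as rRNA with 148 bases, was the row with separate diets. Its values were 128, 108 and 131 in ND and 59.7, 79.1 and 75.2 in HFD. Each HFD library was below each ND library, and the geometric means stood at 0.584 of ND. The log2 difference was -0.77 (SE 0.16, interval -1.14 to -0.41), with an unadjusted p of 0.0008 and an adjusted p of 0.189 from limma, so it did not pass. The groups did not overlap in 14.5% of all genes, with the HFD libraries all lower in 7.07% and all higher in 7.44%. It kept a negative sign with each single library left out, from -0.86 to -0.65, and was -0.72 without ND replicate 3 (adjusted p = 0.0952). With array weights it passed, at -0.70 and an adjusted p of 0.0173, and its adjusted p among the alternatives was between 0.0173 and 0.760.

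The counts behind n-R5-8s1 were small. They amounted to 128, 111 and 111 estimated reads in ND and 61, 82 and 83 in HFD. The Wilson 95% interval of its share reached down to 0.000404% in the ND library with the lowest bound and up to 0.000432% in the HFD library with the highest, so these 2 intervals overlapped. Over the 9 pairs of an ND and an HFD library, the intervals were apart in 7 and overlapped in 2. Such intervals cover counting error only, since PCR copies of 1 molecule cannot be recognised in these reads.

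The mitochondrial ribosomal RNAs also had lower values in each HFD library than in each ND library, and their calls depended on the fit. mt-Rnr1, the 12S RNA, had 28678, 26517 and 24242 in ND and 19621, 16423 and 16997 in HFD, a log2 difference of -0.58 (SE 0.09, limma adjusted p = 0.113). mt-Rnr2, the 16S RNA, had 30430, 23727 and 24948 in ND and 19803, 12241 and 19110 in HFD, at -0.65 (SE 0.17, limma adjusted p = 0.278). mt-Rnr1 passed without ND replicate 3 (-0.65, adjusted p = 0.0159), with the replicate number as a block (adjusted p = 0.0372) and with array weights (-0.69, adjusted p = 0.00443), and its largest adjusted p among the alternatives was 0.750 (limma). mt-Rnr2 passed with array weights (-0.97, adjusted p = 0.0106) but not without ND replicate 3 (-0.69, adjusted p = 0.121), and was -0.43 with HFD replicate 2 left out, at the largest of its adjusted p-values, 0.860 (limma). HFD replicate 2 was the lowest library for both, as for CT010467.1. In mean absolute log2 difference over the libraries, the profile of n-R5-8s1 lay 0.19 from mt-Rnr1 and 0.27 from mt-Rnr2, and that of CT010467.1 lay 0.38 and 0.22 from them. In single libraries CT010467.1 was 6.29 to 14.2 times mt-Rnr1 and 8.43 to 14.1 times mt-Rnr2, and the latter ratio averaged 11.1 ± 1.54 in ND against 11.5 ± 2.86 in HFD (SD, n = 3, exact two-sided permutation p = 0.9). These RNAs, the depletion step and the neutrophil markers all belong to the same 6 libraries, and the part of depletion or of other cells in the values was not tested.

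**Figure D2:**
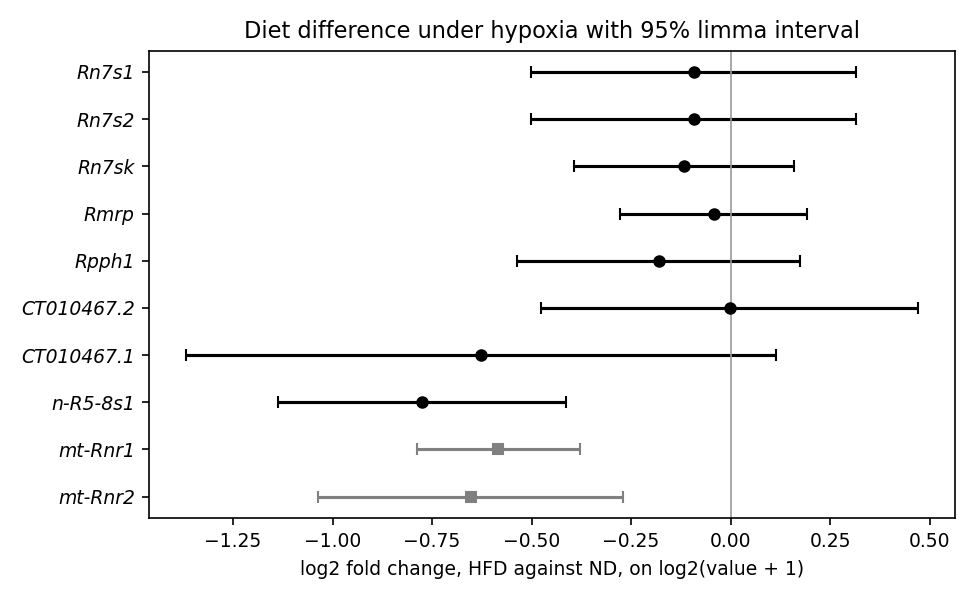
log2 fold change, HFD against ND, on log2(value + 1) (horizontal axis) for the 8 structural RNA rows (black circles) and the mitochondrial ribosomal RNAs (grey squares), with 95% intervals from limma, n = 3 per diet. The intervals of n-R5-8s1, mt-Rnr1 and mt-Rnr2 lie below 0, and none of these passed the adjusted p in this fit, though n-R5-8s1 and both mitochondrial RNAs passed with array weights, and mt-Rnr1 also without ND replicate 3 and with the replicate block.

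None of the listed genes of the RNA polymerase I machinery and of ribosomal RNA processing passed the adjusted p in limma. All 13 polymerase I genes were in the table, 7 above and 6 below 0, with a median log2 difference of 0.01 and 0 passing. That median was -0.04 without ND replicate 2. Polr1a, the large catalytic subunit, had means of 729 ± 76.9 and 887 ± 112 (SD, n = 3; limma adjusted p = 0.404), and Polr1e had 63.2 ± 7.66 and 76.7 ± 9.37 (SD, n = 3), both with overlap. Of 14 processing genes 14 were in the table, 9 above and 5 below 0, with a median of 0.04 and 0 passing. Their median ran from -0.0039 without HFD replicate 3 to 0.0998 without ND replicate 3. Utp3, a factor of the small subunit processome, had means of 723 ± 32.3 and 600 ± 29.96 (SD, n = 3) and each HFD library below each ND library, at -0.27 (limma adjusted p = 0.284), and Bop1 had 465 and 541 with overlap. Of the 14, 2 did not overlap, Utp3 among them, where 14.5% of all genes did not.

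Over the 8 rows, 8 had a log2 difference below 0, with a median of -0.105, against 51.1% of all genes below 0 and a median of -0.0034, and the signs of Rn7s1, Rn7s2, Rmrp and CT010467.2 turned in at least 1 alternative. The rows are not independent, since Rn7s1 and Rn7s2 are 1 measurement. At an adjusted p under 0.05, 0 of 8 and 0 of 13232 genes (0%) were called by limma with equal weights and no block, and the smallest adjusted p of any gene was 0.0656. Array weights called 2 of 8 and 1133 genes (8.56%), and the replicate block called 0 of 8 and 31 genes (0.234%). At an unadjusted p under 0.05, 1 of 8 was called against 10.6% of all genes, or 1401, of which 715 were higher and 686 (5.18% of all genes) lower in HFD. With each library scaled to its total without these rows and mitochondrial ribosomal RNA, that split was 520 higher and 950 lower. Without ND replicate 3, 233 genes (1.76%) passed the adjusted p, none of them among the 8.

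**Figure D3:**
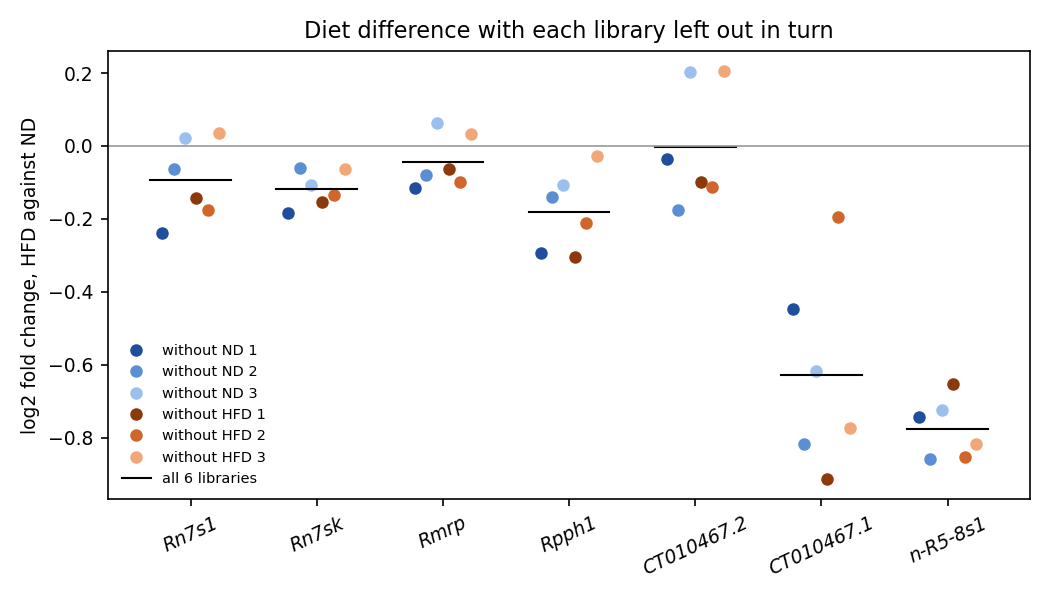
log2 fold change, HFD against ND (vertical axis), of 7 rows (Rn7s2 equals Rn7s1) with all 6 libraries (bars) and with each library left out in turn (points, coloured by the library left out). The points of Rn7s1, Rmrp and CT010467.2 cross 0, those of n-R5-8s1 stay between -0.86 and -0.65, and CT010467.1 moves to -0.20 without HFD replicate 2.

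Together the 8 rows took 7.97%, 8.65% and 9.68% of the ND and 8.59%, 7.86% and 6.86% of the HFD libraries. The means were 8.76% ± 0.861 and 7.77% ± 0.869 (SD, n = 3), a difference of -0.994 percentage points with overlap (exact two-sided permutation p = 0.2, where 0.1 is the smallest that 3 against 3 libraries can give). Leaving out single libraries moved the difference between -1.41 and -0.538 points, the latter without ND replicate 3. Both 7SL rows are in this sum, which may count a read more than once, and together they differed by -0.358 points. The permutation p of the single shares was 0.5 for Rn7s1, 0.3 for Rn7sk, 0.7 for Rmrp, 0.4 for Rpph1, 0.3 for CT010467.1, 0.9 for CT010467.2 and 0.1 for n-R5-8s1, all exact and two-sided.

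**Figure D4:**
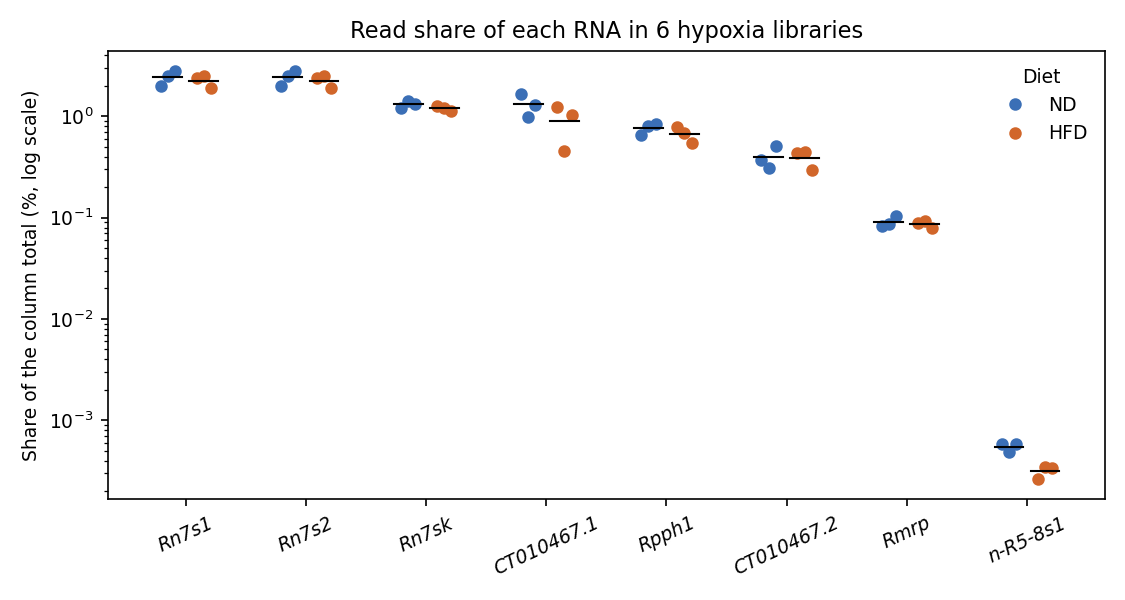
Share of the column total in percent (vertical axis, log scale) of each of the 8 rows, with 1 point per library (3 ND, 3 HFD) and a bar at each diet's mean. The diets overlap in 7 rows, and n-R5-8s1, at 0.000265% to 0.000581%, shows separate diets.

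By share, Rn7s2 and Rn7s1 ranked 1 and 2 of all genes, Rn7sk 3, CT010467.1 6, Rpph1 14, CT010467.2 19, Rmrp 89 and n-R5-8s1 10860. The range of the CT010467.1 share over libraries overlapped with those of Rn7sk and Rpph1, while other neighbours in this order, apart from the equal Rn7s1 and Rn7s2, did not overlap. Values per kb of annotated length, a rough scale across genes, averaged 1751053 for Rn7s1, 851874 for Rn7sk, 504640 for Rpph1, 374277 for CT010467.2, 101431 for CT010467.1, 71195 for Rmrp and 654 for n-R5-8s1, against 124 for the median gene. Nothing was corrected for how 75-base reads sample short RNAs, for ribosomal RNA depletion or for 7SL reads counted more than once, so the order is not a measured abundance of molecules. On this scale Rpph1 (378824 to 587470) overlapped with CT010467.2 (274380 to 487759), and CT010467.1 (41857 to 150966) with Rmrp (62796 to 83414), while the ranges of Rn7s1, Rn7sk and Rpph1 were apart from one another. Lengths are those of GENCODE M21, over all exons of a gene name (281 bases for Rmrp, which has a second model, and 2466 for CT010467.1, whose transcript compared by windows has 1849), and may differ from those of the authors' annotation.

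The genes most like each RNA were found by the mean absolute difference of centred log2 values over the 6 libraries. Beside its copy Rn7s2, Rn7s1 was nearest to Pex16 at 0.05 and Map3k10 at 0.05, where the median gene lay at 0.20. Rn7sk was nearest to Psenen, Sub1 and Gm5881 at 0.02 to 0.03 (median gene 0.12), Rmrp to Bola2, Prelid1 and Ndufa2 at 0.01 to 0.02 (median gene 0.14), and Rpph1 to 0610010K14Rik, Pigyl and Zmynd15 at 0.05 to 0.06 (median gene 0.20). n-R5-8s1 was nearest to the histone genes H2bc7 at 0.14 and H2ac6 at 0.16 and to Gm49971 at 0.16 (median gene 0.39); that all HFD libraries lay below all ND libraries in each follows from the choice. CT010467.2 was nearest to Gm19918, Gm4246 and Gm5805 at 0.05 to 0.09 (median gene 0.28). CT010467.1 was nearest to Mir6236 at 0.14, Lars2 at 0.14 and Ywhaq-ps3 at 0.18 (median gene 0.44).

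The values of the nearest genes of CT010467.1, chosen for their likeness to it, were as follows. Mir6236, annotated as a microRNA precursor, had values of 14514, 9679 and 11245 in ND and 10692, 2842 and 8538 in HFD. Lars2, the mitochondrial leucyl-tRNA synthetase, had values of 15325, 8355 and 11664 in ND and 13130, 5376 and 9333 in HFD. That HFD replicate 2 was the lowest and ND replicate 1 the highest library in both follows from how they were chosen.

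Of 15 other structural RNAs looked for, 7 were in the table, and none passed in limma with all libraries or in the alternatives run. The Y RNAs, small RNAs bound by the Ro protein, had values of 39.1 to 57.9 (Rny1) and 67.9 to 154.7 (Rny3), with log2 differences of 0.26 and 0.22. That of Rny3 was -0.06 with ND replicate 1 left out and 0.53 with ND replicate 3 left out. The vault RNA Vaultrc5 ranged from 131 to 222, with a log2 difference of 0.06 that was -0.08 with HFD replicate 1 left out and 0.30 with HFD replicate 3 left out. Rnu12, the U12 RNA of the minor spliceosome, had values of 422, 620 and 694 in ND and 559, 569 and 311 in HFD (log2 difference -0.29, SE 0.24), and Scarna2 had 916, 991 and 1475 in ND and 1256, 1327 and 746 in HFD (-0.035, SE 0.23). Without HFD replicate 3 the difference of Rnu12 was -0.0059 and that of Scarna2 0.23. For both of these, HFD replicate 3 was the lowest and ND replicate 3 the highest library, as for Rn7s1, Rmrp and Rpph1. Of the other 5, Vaultrc5 was also lowest in HFD replicate 3 and Rny3 also highest in ND replicate 3, and none had both. Scarna10 and Scarna13, guide RNAs of Cajal bodies, had log2 differences of 0.10 and -0.12, which with single libraries left out ran from -0.13 (HFD replicate 2) to 0.39 (HFD replicate 1) and from -0.17 (ND replicate 3) to -0.05 (ND replicate 2). The diets overlapped in all 7.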

How the data were processed

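Total RNA was depleted of ribosomal RNA and sequenced as single reads of 75 bases with a strand-keeping kit, per the labels' protocols. The authors used STAR, Partek and the mm10 build, per the submitters' processing notes; annotation, counter and strand setting are not given in the sources used here. The deposited values are a signal: in each library 57.0% to 58.4% of the entries from 5 to 1000 fell on whole multiples (within 0.02) of 1 step, against 3.95% to 4.01% at other steps, so they read as estimated counts divided by a size factor. Many entries were fractions of that step, so the values were treated as normalized and no count test was chosen. Columns marked NC were taken as ND.

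log2(value + 1) was compared with limma 3.58.1 (R 4.3.3, mean-variance trend, two-sided, Benjamini-Hochberg over 13232 genes), tested first on simulated data. Shares were compared by exact permutation. Members and lists were chosen with earlier results of these data known. Named were all 8 rows, per partner list the 2 genes with the smallest p, every other structural RNA found, and the 3 nearest genes of each row (mean 100 or more). Sequences and positions come from GENCODE M21 (GRCm38, the mm10 assembly), matched by name; those of the 7SL rows are not reported here.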

Additional observations from a re-analysis of the deposited data

How the results depend on the processing

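The count of genes past the adjusted p was 0 with all libraries and also with other pseudocounts, filters and scalings and without limma's trend. It was 1133 with array weights and 31 with the replicate number as a block, and 0 to 233 with single libraries left out (leaving out ND replicate 3 gave 233, HFD replicate 1 gave 2, ND replicate 2 gave 1); at an unadjusted p it ranged from 700 to 2309 in those fits. Whether same-numbered libraries were handled together is not given in the sources used here. Residual correlations of same-numbered libraries were 0.09, -0.11 and 0.03 over genes, which does not settle it. The block took the SE of CT010467.1 from 0.33 to 0.16. Under the block n-R5-8s1 had an adjusted p of 0.126 and CT010467.1 one of 0.177, and none of the 8 rows was called. Array weights turned Rn7s1 and Rn7s2 to 0.13, Rmrp to 0.10 and CT010467.2 to 0.21, and took n-R5-8s1 (-0.70) and CT010467.1 (-1.20) past the threshold. Quantile normalization turned CT010467.2 to 0.038 and set Rn7s1 to 0 by construction, as both 7SL rows hold the top ranks in each library. It also moved CT010467.1 to -0.40 and Rn7sk to -0.03, while array weights moved Rpph1 to -0.04 and Rn7sk to -0.05. A minimum mean of 100 removed n-R5-8s1.

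With single libraries left out, the log2 difference ran from -0.239 to 0.036 for Rn7s1 and Rn7s2 (0.02 without ND replicate 3), -0.185 to -0.06 for Rn7sk, -0.114 to 0.064 for Rmrp (0.03 without HFD replicate 3), -0.30 to -0.03 for Rpph1, -0.91 to -0.20 for CT010467.1 and -0.18 to 0.21 for CT010467.2 (0.20 without ND replicate 3). The share differences in percentage points ran from -0.404 to 0.00352 for Rn7s1 and to 0.00351 for Rn7s2 (0.00176 without HFD replicate 3), -0.00784 to 0.00289 for Rmrp (0.000357 without HFD replicate 3) and -0.0521 to 0.0518 for CT010467.2 (0.0441 without HFD replicate 3). The median of the polymerase III subunits ran from -0.0121 (ND replicate 2 left out) to 0.0472. The cause of these turns was not tested. The 3 libraries per diet and, for n-R5-8s1, 61 to 128 estimated reads set the precision.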
